A study of Homo sapiens with 4 samples.

Results

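Receptor tyrosine kinases are membrane proteins that bind a growth factor or a ligand on a neighbouring cell, dimerise and phosphorylate tyrosines on themselves and on adaptor proteins. The signal passes through RAS and the MAP kinases and through PI3 kinase, and inhibitors such as the Sprouty proteins limit it. In the corneal epithelium, EGFR signalling is best known for driving migration and proliferation after wounding. KIT, the receptor for stem cell factor (KITLG), is best known in melanocytes, mast cells and blood progenitors.

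The members described here are receptor tyrosine kinase genes, with the neurotrophin receptors left out, matched by their platform gene symbol. Of 47 listed genes, 43 were measured through a feature with 1 symbol, among 18417 genes on the array. ALK, RET and ROS1 were named by features that carry several symbols and were not analysed here, and EPHB2 was not analysed here.

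The study lowered KLF7, a zinc finger transcription factor, in HCE cells, labelled as a cell line of undifferentiated cells, and belongs to work on the corneal epithelium. Of 4 samples, 2 received a scramble control siRNA pool and 2 a pool of siRNAs against KLF7 (siKLF7), both at 20 nM. The medium was the same for both groups, 100000 cells were plated per well, and total RNA was collected 48 hours after transfection. Such a knockdown is transient and partial. Nothing in the labels tells separate cultures from repeat preparations within a group, so the p-values rest on a spread that may be technical.

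The array signals are on a linear scale with a median of 185 to 194, and differences are given as log2(signal + 16), which understates the change of dim genes. KLF7 itself gave signals of 4649 and 2911 with scramble siRNA, against 1492 and 1122 with siKLF7. Scramble control replicate 1 stood apart: it correlated with the other arrays at 0.934 to 0.938 across genes, and those 3 with each other at 0.990 to 0.994. That array also stood apart in corneal markers. KRT3, a keratin of the corneal epithelium, had signals of 0.0055 in scramble control replicate 1, 1440 in replicate 2, and 1873 and 2461 with siKLF7, while the basal keratin KRT5 stood at 11828 to 13575 in all 4. Whether scramble control replicate 1 came from cells in the same state as the others was not tested. Each comparison is therefore given with 4 arrays and with 3 arrays, that is, without scramble control replicate 1, where the lone control is assumed to vary like the siKLF7 pair.

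KIT was the member that rose against scramble control replicate 2, and it was also higher than scramble control replicate 1. Its signal was 17.2 and 87.8 in scramble control replicates 1 and 2, and 370 and 307 in siKLF7 replicates 1 and 2. Both siKLF7 arrays lay above both controls, and the lower control value was close to the pseudocount of 16. Averaged by group, the signal came to 52.5 ± 49.9 (SD, n = 2) with scramble siRNA, against 339 ± 44.5 (SD, n = 2) after KLF7 knockdown. Its log2 difference was 2.59 (SE 0.56) with 4 arrays, where limma's adjusted p was 0.639 and p was 0.333 by exact two-sided permutation, the lowest value this design of 2 against 2 allows. With 3 arrays KIT rose by 1.77 on the log2 scale, and the signal was 3.86-fold that of scramble control replicate 2. Scramble control replicate 1 differed from replicate 2 by -1.64 on the same scale, a gap nearly as large as this rise. The lone control of the 3-array fit gives no spread of its own, so that fit does not measure the gap between controls. By size of upward difference KIT ranked 2 of 18417 genes with 3 arrays and 17 with 4 arrays. The rise was known from earlier results of these data, so its rank is a description. KIT lay at percentile 28.5 of the genes by mean level and was not tested where the dimmest 50% of genes were left out.

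KLF proteins bind GC-rich and CACC-type sequences, so the 250 bases before the RefSeq transcript start were read for the members with the largest differences and groups that did not overlap. Capitals mark a GC box, searched as GGGCGG on both strands. They also mark a CACC box, searched as CACCC on both strands, so that a match on the other strand reads as the reverse complement. The windows shown are those of KIT at chr4:54657707-54657956 on the plus strand, FGFR2 at chr10:121598445-121598694 on the minus strand (the first of its 5 listed starts) and IGF1R at chr15:98648289-98648538 on the plus strand, all in GRCh38.p14, written 5′ to 3′ along the gene.
KIT: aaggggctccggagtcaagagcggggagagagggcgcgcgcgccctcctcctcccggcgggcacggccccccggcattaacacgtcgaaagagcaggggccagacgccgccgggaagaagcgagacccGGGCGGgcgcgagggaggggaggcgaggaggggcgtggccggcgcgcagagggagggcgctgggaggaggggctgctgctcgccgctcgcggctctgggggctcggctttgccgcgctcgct
FGFR2: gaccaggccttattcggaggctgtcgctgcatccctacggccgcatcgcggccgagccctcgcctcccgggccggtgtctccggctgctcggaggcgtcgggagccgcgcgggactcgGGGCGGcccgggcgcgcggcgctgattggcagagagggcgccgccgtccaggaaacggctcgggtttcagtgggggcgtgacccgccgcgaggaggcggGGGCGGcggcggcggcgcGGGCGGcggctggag
IGF1R: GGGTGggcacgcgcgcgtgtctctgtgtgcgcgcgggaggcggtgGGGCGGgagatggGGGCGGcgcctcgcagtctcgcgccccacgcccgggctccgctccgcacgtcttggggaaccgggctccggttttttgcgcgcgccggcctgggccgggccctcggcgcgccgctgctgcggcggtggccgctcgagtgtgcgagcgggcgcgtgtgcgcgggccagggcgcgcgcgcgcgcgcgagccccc

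The KIT window held 1 GC box, 122 bases before the start, and 0 CACC boxes. The FGFR2 window shown held 3 GC boxes and 0 CACC boxes, and the IGF1R window 2 GC boxes and 1 CACC box. Of the other 4 FGFR2 windows, the second held neither motif, the third 2 CACC boxes, the fourth 1 of each and the fifth 1 CACC box. The 2 listed EPHA4 windows held 1 and 5 GC boxes and 0 CACC boxes. Of all 35116 windows in the RefSeq table, 42.6% held a GC box and 54.7% a CACC box. Of the 65 windows of the 40 members in the table, 61.5% and 58.5% did. These are matches of the searched letters only, and other GC-rich sequences were not searched for. Binding of KLF7 was not measured.

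**Figure D1:**
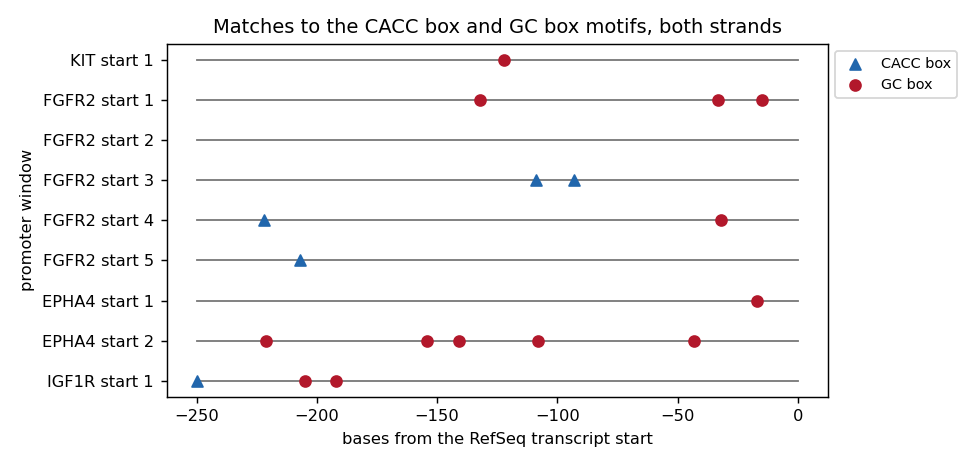
Positions of CACC box (triangles) and GC box (circles) matches on either strand in the 250 bases before each listed RefSeq start of KIT, FGFR2, EPHA4 and IGF1R, with the x axis in bases from the start. The single KIT match is a GC box at -122, and the second EPHA4 window holds 5.

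With 3 arrays, 1 of 43 members passed limma's threshold (1.57% of all genes did). It rose (0.885% of all genes), 0 fell (0.690% of all genes) and 42 did not pass. Apart from KIT, the differences from scramble control replicate 2 ran from -0.32 to 0.50. At an unadjusted p under 0.05 there were 4 (11.3% of all genes): KIT, FGFR2, INSR and EPHB1. Both siKLF7 arrays lay above scramble control replicate 2 for 12 members (29.7% of all genes), below it for 23 (44.6% of all genes) and on either side of it for 8. With 4 arrays, 0 members passed, as did 0% of all genes by limma. At an unadjusted p under 0.05 there were 3 (5.80% of all genes), with KIT and FGFR2 higher (1.90% of all genes) and INSR lower (3.90% of all genes). The median member difference was -0.14 with 4 arrays and -0.09 with 3 arrays, beside -0.05 and -0.04 over all genes. The 3-array median was -0.028 with quantile normalization, and it turned to 0.0042 and 0.097 without the dimmest 25% and 50% of genes, which left 28 and 17 members.

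**Figure D2:**
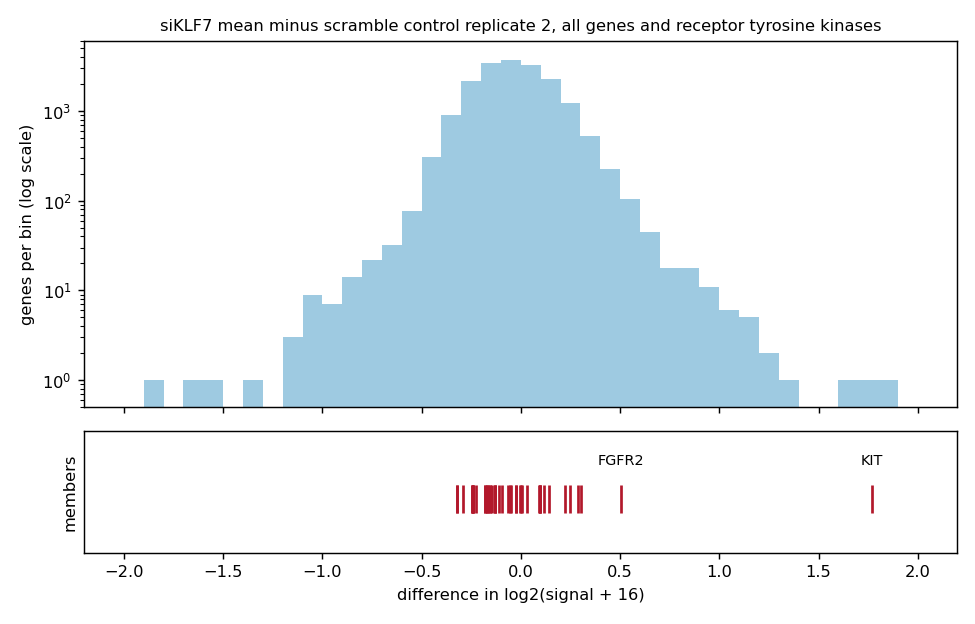
Upper panel, number of genes (log scale) by difference in log2(signal + 16) between the siKLF7 mean and scramble control replicate 2, for all 18417 genes; lower panel, the 43 receptor tyrosine kinase genes as ticks. KIT lies at 1.77 and FGFR2 at 0.50, and the others lie between -0.32 and 0.30.

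For 24 members the groups did not overlap (45.2% of all genes). Both siKLF7 arrays lay above both controls for 5 members (16.3% of all genes): KIT, FGFR2, FGFR3, EPHA1 and EPHA4. They lay below both for 19 (28.9% of all genes), and for 19 the groups overlapped. The count below both was 17 with median centring and 13 with quantile normalization, and the count above both stayed at 5. With 1 or both of these scalings the sign of the 3-array difference turned for CSF1R, EPHA5, ERBB2, FGFR4, FLT3 and TYRO3, and that of the 4-array difference for EPHA5 and EPHB6. Dim genes were lower as a whole: among the dimmer 50% of genes by mean level, 37.5% lay below both controls, and the median difference with 4 arrays was -0.10. Of the 43 members, 26 were in that dimmer part, and 16 of those 26 lay below both controls. With a fold of at least 1.5 on the log2(signal + 16) scale as well, 4 members had groups that did not overlap (3.15% of all genes): KIT, FGFR2, EPHA4 and IGF1R.

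**Figure D3:**
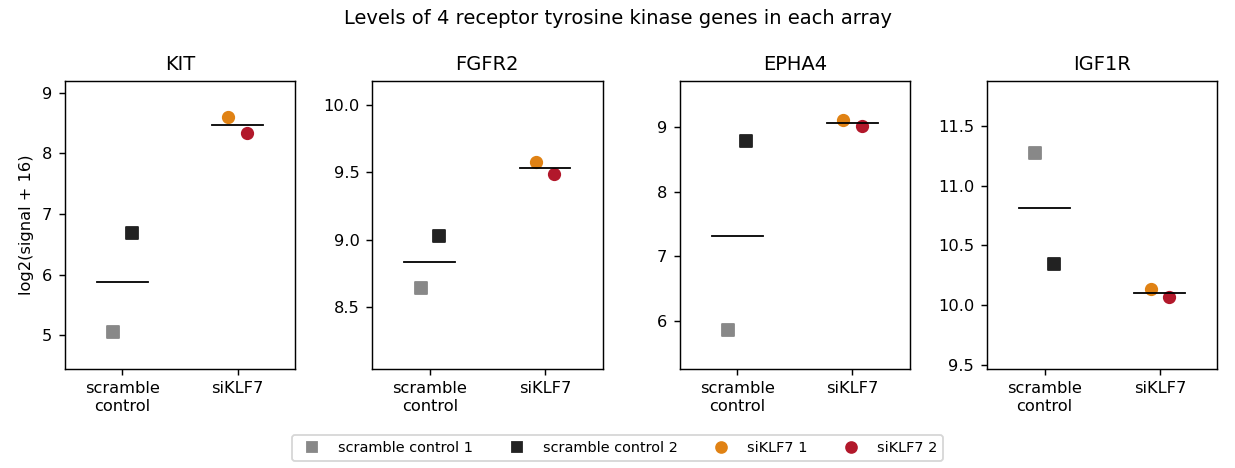
Log2(signal + 16) of KIT, FGFR2, EPHA4 and IGF1R in each of the 4 arrays, with squares for scramble control, circles for siKLF7 and a line at each group mean; each panel has its own y axis. KIT and FGFR2 lie apart from both controls, while for EPHA4 and IGF1R scramble control replicate 2 lies near the siKLF7 arrays.

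Among the fibroblast growth factor receptors, FGFR2, which in epithelia receives FGF7 and FGF10, was higher in siKLF7 arrays. Its signal was 383 and 506 in scramble control replicates 1 and 2, and 748 and 702 in siKLF7 replicates 1 and 2. The siKLF7 values were above both controls and closer to each other than the controls were. The log2 difference was 0.70 (SE 0.18, limma adjusted p = 0.639) over 4 arrays and 0.50 (SE 0.16, adjusted p = 0.096) over 3, so it did not pass in either fit. With 3 arrays it passed after median centring (0.54, adjusted p = 0.019) and after quantile normalization (0.50, adjusted p = 0.038), and adjusted p ranged from 0.019 to 0.15 over 10 settings. FGFR3 differed by 0.35 with 4 arrays and 0.12 with 3, FGFR4 by -0.14 and -0.02, and FGFR1 by 0.01 and -0.09, and none of them passed.

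EPHA4, a receptor for ephrins of both the A and the B class, was set apart by 1 control array. Its signal was 42.4 and 423 in scramble control replicates 1 and 2, and 536 and 503 with siKLF7. Scramble control replicate 1 alone was low, and the other 3 arrays lay close together. The log2 difference was 1.74 (SE 0.96, limma adjusted p = 0.639) over 4 arrays and 0.29 (SE 0.16, adjusted p = 0.52) over 3. Among the other EPHA genes, EPHA1 differed by 0.21 and 0.25, and EPHA2, a receptor known in many epithelia, by -0.18 and -0.25. The remaining EPHA genes ranged from -0.20 to -0.05 with 4 arrays. In EPHA3 the siKLF7 arrays themselves differed by 0.45, the widest gap of that pair among the members. Of the EPHB genes, EPHB3 stood at 0.59 with 4 arrays and -0.17 with 3, with signals of 124 and 386 in the controls and 348 and 333 with siKLF7. EPHB1 differed by -0.24 and -0.32, EPHB4 by 0.03 and 0.10, and EPHB6, which lacks kinase activity, by -0.02 and -0.17. No EPHA or EPHB gene passed with 4 or 3 arrays.

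IGF1R, the receptor for insulin-like growth factors, was lower in siKLF7 arrays than in both controls. Its signal was 2466 and 1285 in scramble control replicates 1 and 2, and 1110 and 1056 with siKLF7. The gap between the controls was wider than the gap from scramble control replicate 2 to the siKLF7 arrays. The log2 difference was -0.71 (SE 0.33, limma adjusted p = 0.639) over 4 arrays and -0.24 (SE 0.14, adjusted p = 0.53) over 3. A second IGF1R feature gave -0.79 and -0.19. INSR, the insulin receptor, had signals of 168 and 161 in the controls and 126 and 126 with siKLF7. Its groups did not overlap, at -0.35 (SE 0.11, adjusted p = 0.639) with 4 arrays and -0.32 (SE 0.16, adjusted p = 0.44) with 3, and it did not pass.

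Of the ERBB receptors, EGFR had signals of 3865 and 3174 in the controls and 3018 and 2696 with siKLF7. Both siKLF7 values were below both controls, by -0.29 (SE 0.15) with 4 arrays and -0.15 (SE 0.11) with 3, and neither fit passed. ERBB2, the partner receptor with no ligand of its own, stood between 561 and 594 in all 4 arrays. ERBB3, whose kinase is largely inactive, had signals of 144 and 415 in the controls and 419 and 383 with siKLF7. It differed by 0.66 with 4 arrays and -0.05 with 3, and ERBB4 by -0.08 and -0.13.

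The receptors related to KIT in structure did not follow it. PDGFRA and PDGFRB, receptors for platelet-derived growth factors, differed by -0.24 and -0.19 with 4 arrays and -0.29 and -0.15 with 3. CSF1R, the receptor for macrophage colony-stimulating factor, differed by -0.15 and -0.07, and FLT3 by -0.07 and -0.05. Their signals ranged from 90.3 in siKLF7 replicate 1 (PDGFRA) to 162 in scramble control replicate 1 (FLT3), and 0 of the 4 passed. The difference of KIT from these genes was not itself tested.

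Receptors best known in blood vessels were dim in every array. The VEGF receptors FLT1, KDR and FLT4 differed by -0.20, -0.16 and -0.19 with 4 arrays, and the angiopoietin receptor TEK and its relative TIE1 by -0.28 and -0.25. All 5 lay below both controls as deposited, as did 28.9% of all genes and 37.5% of the dimmer 50% of genes, and FLT1 and KDR overlapped a control after quantile normalization. Their siKLF7 signals ran from 61.2 (TEK) to 121 (TIE1), and 0 of 5 passed with 4 or 3 arrays. The 8 vascular endothelial markers measured had a summed signal of 1809 and 1665 in the controls and 1467 and 1569 with siKLF7, and none was listed at 0. Their part in the result was not tested. The samples were labelled as a cell line, and a marker signal above 0 does not show that endothelial cells were present.

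The remaining families gave differences of either sign. MET, the hepatocyte growth factor receptor, had signals of 3144 and 1960 in the controls and 2219 and 1982 with siKLF7, and its relative MST1R 490 and 275 against 350 and 334. In both genes the siKLF7 arrays lay between the controls. AXL, a receptor for GAS6, did the same at 2014 and 1250 against 1487 and 1440, and so did the collagen receptor DDR1 at 3438 and 1580 against 1712 and 1780. Against scramble control replicate 2 these 4 genes differed by 0.10, 0.30, 0.22 and 0.14, and with 4 arrays by -0.24, -0.10, -0.12 and -0.41. MERTK differed by 0.75 with 4 arrays and 0.01 with 3, and TYRO3 by 0.17 with 4 arrays. DDR2, ROR1, ROR2, MUSK, LTK, PTK7 and RYK ranged from -0.23 (MUSK) to 0.04 (ROR1) with 4 arrays. The features of DDR2 differed in sign, at -0.12 and 0.02 with 4 arrays. None of the genes in these families passed with 4 or 3 arrays.

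**Figure D4:**
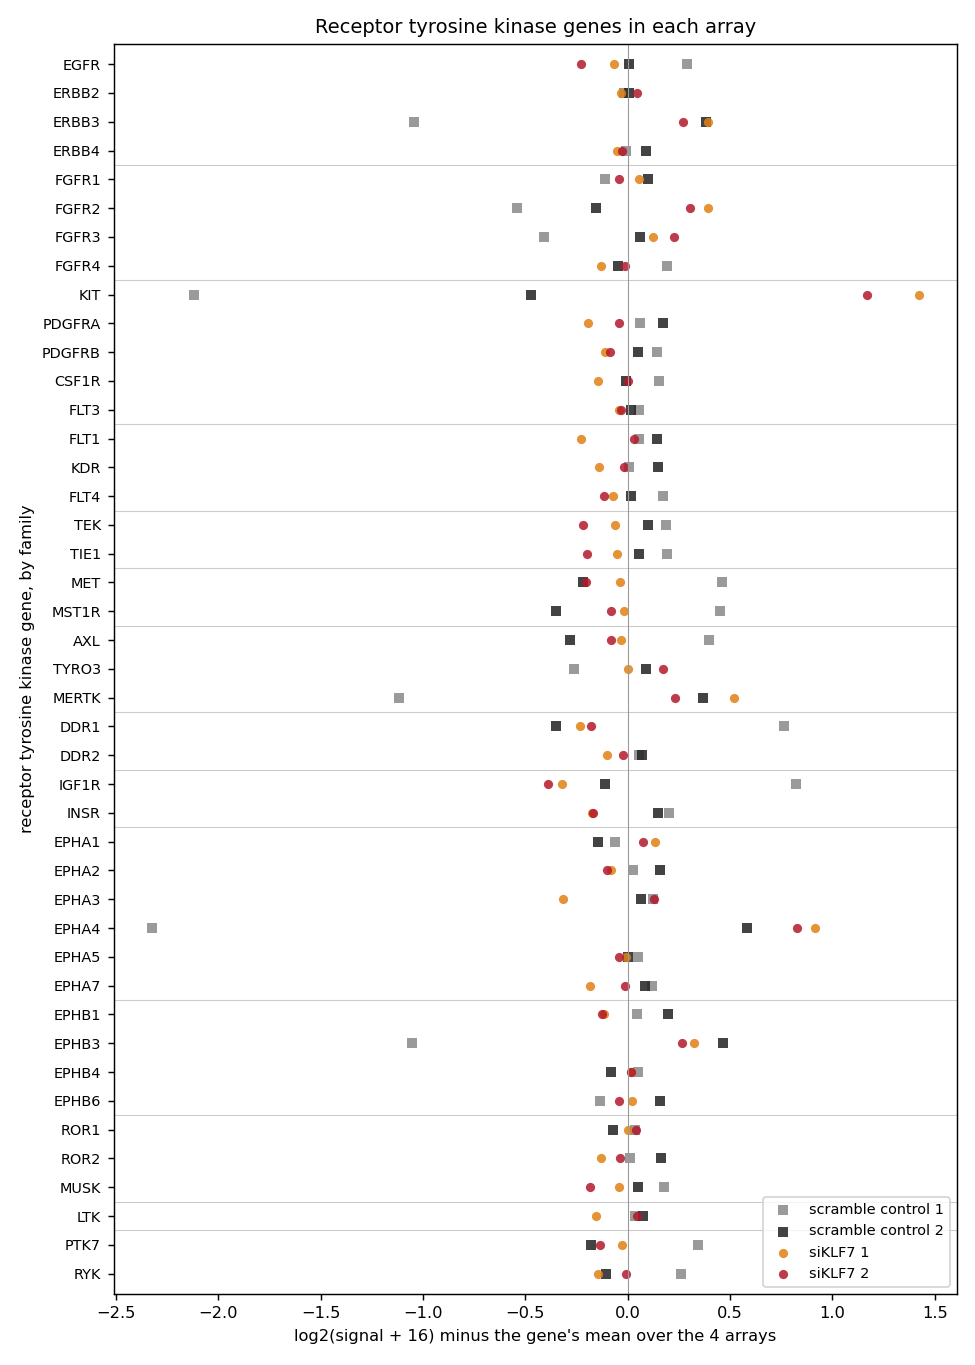
Log2(signal + 16) of each of the 43 genes in each array, minus that gene's mean over the 4 arrays, grouped by family (squares, scramble control; circles, siKLF7). KIT has both siKLF7 arrays above both controls, and its scramble control replicate 1 also lies well below replicate 2 (difference -1.64). For EPHA4, ERBB3, EPHB3, MERTK and DDR1 scramble control replicate 1 stands apart from the other 3 arrays.

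In 6 of 43 members the scramble control arrays were at least 2-fold apart (5.29% of all genes). ERBB3, KIT, MERTK, EPHA4 and EPHB3 were lower in scramble control replicate 1 (2.95% of all genes), and DDR1 was higher (2.34% of all genes). Against scramble control replicate 1 alone, in a fit without replicate 2, 15 of 43 members passed (26.8% of all genes did), of which 7 rose (13.4% of all genes) and 8 fell (13.4% of all genes). The lone control of that fit, the array that stood apart, gives no spread of its own, so the fit does not measure the gap between controls. KIT rose by 3.41, EPHA4 by 3.19, MERTK by 1.49, ERBB3 by 1.38, EPHB3 by 1.35, FGFR2 by 0.89 and FGFR3 by 0.58. IGF1R fell by 1.18, DDR1 by 0.97, MET by 0.58, MST1R by 0.50, AXL by 0.46, EGFR by 0.44, PTK7 by 0.42 and RYK by 0.34. The comparisons with either control share the siKLF7 arrays. KIT was the member that rose in both.

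The signal of KIT was set beside markers of cells known to express it. Of 9 listed melanocyte markers, 8 were measured, and their summed signal was 1161 and 1126 in the controls and 982 and 1081 with siKLF7. None was listed at 0. MITF, a regulator of melanocytes, had signals of 215 and 209 in the controls and 160 and 212 with siKLF7. Of 9 mast cell markers, 6 were measured, with summed signals of 891 and 844 in the controls and 719 and 810 with siKLF7, and none was at 0. Both summed signals were lower in each siKLF7 array than in either control. Marker by marker, 4 of 8 and 3 of 6 lay below both controls. So did 28.9% of all genes and 37.5% of the dimmer part of the genes by mean level. Whether the lower sums reflect fewer such cells was not tested. With 3 arrays 0 of 8 and 0 of 6 markers passed (1.57% of all genes did). The samples were labelled as a cell line, and a marker signal above 0 does not show that melanocytes or mast cells were present. The part of such cells in the KIT result was not tested. Of 11 corneal epithelial markers, 10 were measured, their summed signals were 25978 and 36027 in the controls and 40326 and 42809 with siKLF7, and 5 rose with 3 arrays (0.885% of all genes). These were KRT15 by 0.85, KRT12 by 0.81, ALDH3A1 by 0.65, KRT3 by 0.57 and CLU by 0.53, and their part in the KIT result was not tested.

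Genes with a pattern like that of KIT were taken by Pearson correlation over the 4 arrays. Among 1049 genes with an SD of at least 0.5 (log2), 77 had a correlation with KIT above 0.95, with only 4 points, 1 of them the array that stood apart. The closest 5 were RASSF9, the cyclin gene CCNE2, SULF2, an enzyme that trims heparan sulfate, RIDA and MOXD1, at r of 0.997 to 0.999. Their differences with 3 arrays were 0.96 for MOXD1, 0.68 for RASSF9, 0.66 for CCNE2, 0.63 for SULF2 and 0.52 for RIDA. These genes were chosen for this pattern on the same arrays, so the values are a description with no test.

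Of the ligands of the ERBB receptors, 3 passed with 3 arrays. Of the 10 measured, 1 rose (0.885% of all genes) and 2 fell (0.690% of all genes). EREG (epiregulin) had signals of 2886 and 670 in the controls and 333 and 354 with siKLF7, and fell by 0.93 (SE 0.16, limma adjusted p = 6.3e-05). TGFA (transforming growth factor alpha) had signals of 1008 and 760 in the controls and 497 and 388 with siKLF7, and fell by 0.77 (SE 0.16, adjusted p = 0.0019). EGF went the other way. Its signals were 44.0 and 80.3 in the controls and 155 and 125 with siKLF7, and it rose by 0.69 (SE 0.16, adjusted p = 0.0070). In all 3 genes the groups did not overlap (45.2% of all genes). With 4 arrays they stood at -1.97, -0.97 and 1.03, with a limma adjusted p of 0.639. Scramble control replicate 1 differed from replicate 2 by 2.08 for EREG, 0.40 for TGFA and -0.68 for EGF. The 3-array fit, with its lone control, does not measure these gaps. HBEGF differed by -0.30 (SE 0.12, adjusted p = 0.265) with 3 arrays and -0.11 with 4, and did not pass.

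**Figure D5:**
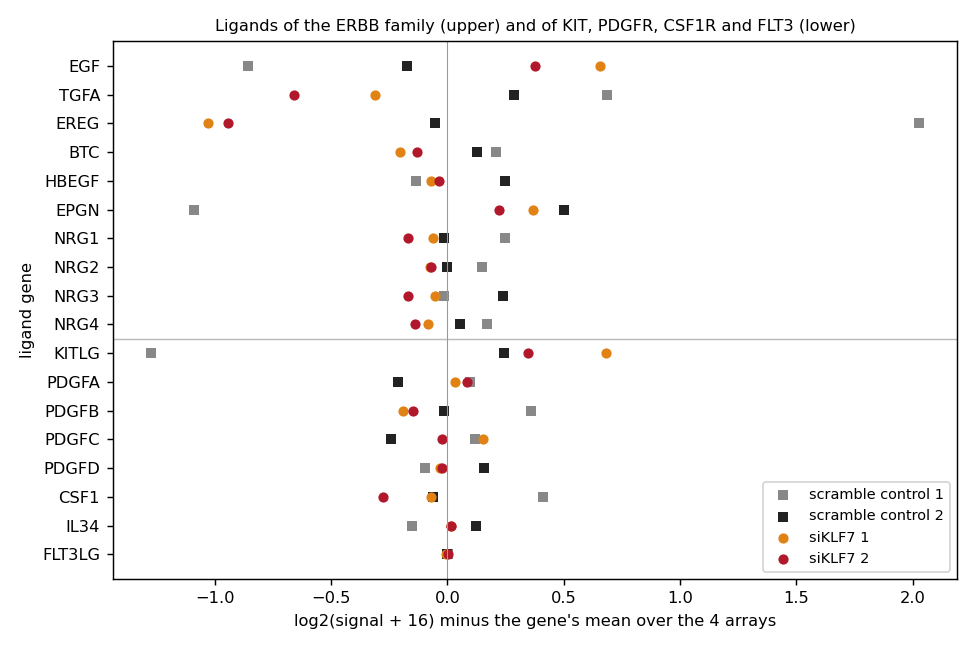
Log2(signal + 16) of ligands of the ERBB receptors (upper) and of KIT, PDGFR, CSF1R and FLT3 (lower) in each array, minus each gene's mean over the 4 arrays (squares, scramble control; circles, siKLF7). EREG and TGFA have both siKLF7 arrays below both controls and EGF has them above, while scramble control replicate 1 is far from the rest for EREG, EPGN and KITLG.

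KITLG, the ligand of KIT, had signals of 102 and 322 in the controls and 441 and 347 with siKLF7. It differed by 1.03 with 4 arrays and 0.27 (SE 0.17, adjusted p = 0.56) with 3, and none of the 8 ligands of KIT, PDGFR, CSF1R and FLT3 passed. Of 18 fibroblast growth factors, 1 fell with 3 arrays and 0 rose. FGF2 had signals of 407 and 932 in the controls and 576 and 601 with siKLF7, so the siKLF7 arrays lay between the controls. FGF2 fell by 0.65 (SE 0.16, adjusted p = 0.0090) against scramble control replicate 2 and stood at -0.07 with 4 arrays, and against scramble control replicate 1 its difference had the other sign, at 0.52. With 3 arrays 0 of 8 ephrins, 0 of 7 VEGF and angiopoietin ligands and 0 of 14 other ligands passed. Over all 65 ligands 1 rose and 3 fell with 3 arrays, beside 0.885% and 0.690% of all genes, and 0 passed with 4 arrays.

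Among the listed genes that act below the receptors, 0 passed with 4 arrays, as did 0% of all genes by limma. Of 34 listed adaptor, RAS, MAP kinase and PI3 kinase genes, 24 were measured. Their median with 3 arrays was -0.0015, beside -0.04 over all genes, with FYN, a SRC-type kinase, at -0.34. The 20 genes listed as feedback inhibitors had a median of -0.09 with 3 arrays. SPRY2, a Sprouty inhibitor, had signals of 348 and 593 in the controls and 842 and 799 with siKLF7. LRIG3 had 625 and 808 against 1156 and 1048. Both genes were above both controls in both siKLF7 arrays, at 0.46 (adjusted p = 0.15) and 0.44 (adjusted p = 0.14) with 3 arrays and 0.83 and 0.62 with 4, and did not pass. DUSP4, a phosphatase that acts on MAP kinases, differed by 0.41 with 3 arrays and did not pass. None of 8 receptor tyrosine kinases outside the listed members passed.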

How the data were processed

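The authors deposited 1 intensity per feature and array on a linear scale, computed in Expression Console 1.1.1 by PLIER 2.0 per the submitters' processing notes. How arrays were scaled to each other is not stated by any source used. Of 33297 features, 19460 carried 1 platform symbol. For the 769 genes with several features, that with the highest mean log2 value was taken, and no filter was set. Groups and replicate numbers came from the sample titles. Limma 3.58.1 (R 4.3.3) fitted log2(signal + 16) with an intensity trend, and p-values were adjusted over 18417 genes by Benjamini-Hochberg at 0.05. The 4-array fit had 2 residual and 2.63 prior degrees of freedom. The 3-array fit had 1 and 74.2, so its spread came from the siKLF7 pair and the prior. The small number of arrays limits the precision.

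The members and lists were chosen with earlier results of these data known. Values in each array are given for KIT, for members past the threshold in either fit, and for members at least 1.5-fold apart with 4 arrays whose groups did not overlap. Other members are named by family, up to 4 each, and up to 4 genes of each other list by smallest p with 3 arrays. CLU and KRT5, both in the marker list, are named beyond this rule, chosen after their values were seen, as were the values per array of further members. The 5 genes most like KIT were taken by correlation. Of 132 pathway genes, 117 were measured, and the others were not analysed here. Promoter windows came from a RefSeq table of GRCh38.p14. The fit was tested on simulated data. Alternatives covered scaling (quantile, median), the filter (dimmest 25% or 50% removed), the prior (untrended, robust), the features of a gene (averaged), the pseudocount (1, 32), the threshold (0.10), the replicate block and each array left out in turn.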

Additional observations from a re-analysis of the deposited data

How the results depend on the processing

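With 4 arrays, 0 genes and 0 members passed under each of the 11 alternatives that kept all arrays, and leaving out 1 array gave 0 to 4935 genes and 0 to 15 members. The largest counts came without scramble control replicate 2. Without scramble control replicate 1 the counts were 290 and 1, the member being KIT, whose difference over these fits ran from 1.77 to 3.41. That of FGF2 ran from -0.65 to 0.52. With the replicate block, 0 genes passed and KIT stood at 2.59. The labels do not state whether arrays with the same replicate number were prepared together. Across genes the replicate differences of the control and siKLF7 pairs correlated at -0.04. The control difference includes the array that stood apart, so this value cannot show whether a small shared effect was present.

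With 3 arrays, 290 genes passed, 172 with no intensity trend and 484 with quantile normalization. Members called numbered 2 (KIT and FGFR2) with an adjusted p under 0.10, median centring or quantile normalization, and 0 without the dimmest 50% of genes, where KIT was not tested. KIT ran from 1.63 to 1.93 over 9 settings, with an adjusted p of 2.6e-26 to 4.1e-07, and from 1.64 to 1.90, with no test, without either siKLF7 array. The median member difference was -0.066 with the mean of a gene's features, -0.060 with median centring, -0.10 with a pseudocount of 1, -0.028 with quantile normalization, and 0.0042 and 0.097 without the dimmest 25% and 50% of genes, which left 28 and 17 members.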

Other observations

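The 13837 features without a single gene symbol, which include those that name ALK, RET or ROS1 beside other genes, were tested apart. By limma 0 passed with 4 arrays and 0 with 3 arrays, and 646 and 373 had an unadjusted p under 0.05.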
